A study of Mus musculus with 6 samples.

Results

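The photoreceptor fate transcription factors are 10 genes that were chosen by symbol (Nrl, Nr2e3, Esrrb, Crx, Otx2, Neurod1, Rorb, Thrb, Rxrg and Prdm1) out of 32285 genes counted in nuclei of the rd10 mouse retina. All 10 symbols were found once in each library, and their UMIs (unique molecular identifiers, each standing for 1 captured transcript) were summed per library over rods, cones and 9 other cell types.

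Mice of the strain B6.CXB1-Pde6b-rd10/J, which carry the rd10 allele of the rod phosphodiesterase gene Pde6b and lose their photoreceptors, were injected once into the vitreous at postnatal day 18 with 20 ng of recombinant IL-27 or with saline. Retinas were taken at postnatal day 20 and single nuclei were sequenced in 6 libraries, 3 from saline eyes (replicates 1, 2 and 6) and 3 from IL-27 eyes (replicates 4, 5 and 10). Both groups carry the rd10 allele, and no retina without it was measured. The labels do not say how many animals gave a library, so p-values measure the spread between these libraries.

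Rods and cones arise from common retinal progenitors. OTX2 starts the photoreceptor programme and activates Crx, and CRX drives genes of both photoreceptor types. RORB and then NRL direct the cell towards a rod, NR2E3 keeps cone genes silent in rods, and thyroid hormone receptor beta with its partner RXRG sets which opsin a cone makes. Most of these factors stay on in mature photoreceptors, where they maintain the opsins and the phototransduction genes.

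To show regions from which members are transcribed, the 250 bases before a RefSeq start site are printed for each of 5 members. They are given 5′ to 3′ on the gene's own strand, from build GRCm38.p6. The Nrl window lies at chr14:55524253-55524502 (minus strand), the Nr2e3 window at chr9:59950080-59950329 (minus strand) and the Esrrb window at chr12:86360867-86361116 (plus strand). The Crx window lies at chr7:15879956-15880205 (minus strand) and the Thrb window at chr14:17660710-17660959 (plus strand). Capitals mark matches, on either strand, to TAATCC (the homeodomain core that CRX and OTX2 bind), TGCTGA (the first part of the NRL element) and AGGTCA (the nuclear receptor half-site).
Nrl: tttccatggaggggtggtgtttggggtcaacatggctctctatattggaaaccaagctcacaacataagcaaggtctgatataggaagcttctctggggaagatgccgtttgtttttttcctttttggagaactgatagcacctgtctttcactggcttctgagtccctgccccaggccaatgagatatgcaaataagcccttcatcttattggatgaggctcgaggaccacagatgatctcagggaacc
Nr2e3: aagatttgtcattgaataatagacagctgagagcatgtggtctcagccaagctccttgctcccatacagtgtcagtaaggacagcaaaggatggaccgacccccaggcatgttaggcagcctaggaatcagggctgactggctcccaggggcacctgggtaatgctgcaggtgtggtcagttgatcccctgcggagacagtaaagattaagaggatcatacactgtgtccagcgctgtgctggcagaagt
Esrrb: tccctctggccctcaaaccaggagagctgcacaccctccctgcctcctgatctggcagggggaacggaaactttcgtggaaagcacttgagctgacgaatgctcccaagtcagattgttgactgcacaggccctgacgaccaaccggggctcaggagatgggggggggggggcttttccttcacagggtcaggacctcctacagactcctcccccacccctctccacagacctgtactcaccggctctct
Crx: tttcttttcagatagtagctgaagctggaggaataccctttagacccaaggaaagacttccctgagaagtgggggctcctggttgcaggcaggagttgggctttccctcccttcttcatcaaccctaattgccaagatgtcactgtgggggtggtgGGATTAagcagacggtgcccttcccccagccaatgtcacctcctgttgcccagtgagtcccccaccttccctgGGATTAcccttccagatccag
Thrb: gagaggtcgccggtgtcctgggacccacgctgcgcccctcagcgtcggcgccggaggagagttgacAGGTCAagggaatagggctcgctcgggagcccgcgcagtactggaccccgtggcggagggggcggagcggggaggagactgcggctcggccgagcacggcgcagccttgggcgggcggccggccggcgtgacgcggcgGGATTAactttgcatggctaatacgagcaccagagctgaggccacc
The Nrl, Nr2e3 and Esrrb windows held none of the 3 motifs in these 250 bases. The Crx window held TAATCC at 2 places and the printed Thrb window held TAATCC once and AGGTCA once. Another Thrb window (chr14:17981394-17981643) and another Esrrb window (chr12:86421394-86421643) are not printed and held none of the 3 motifs. Over all windows of the 10 members, of which there are 17 because some genes have several start sites, TAATCC was found for Crx, Otx2 and Thrb, TGCTGA for Neurod1, Otx2 and Rorb, and AGGTCA for Rxrg and Thrb. Of 32851 windows of the same length in the table, 6.25% held TAATCC, 16.1% TGCTGA and 14.0% AGGTCA, and the motifs do not overlap within the windows shown. These matches are descriptions of the letters alone.

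The libraries held 8968 to 9965 barcodes and 36678332 to 48260748 UMIs each. After filtering, 52184 nuclei were kept, and they fell into 42 clusters. Clusters were called rod-like, cone-like and so on from fixed marker genes and are written as rods, cones, bipolar, amacrine, horizontal, ganglion, Muller, microglia, astrocytes, endothelial and pericytes, while 5 clusters with 2342 nuclei stayed unnamed. The 10 members were kept out of the markers and of the genes used for clustering. Any pair of libraries shared 15 to 27 barcodes. Replicate 10 of the IL-27 group stood apart from replicates 4 and 5 in its Muller nuclei and had the fewest UMIs, so the comparisons of IL-27 with saline in rods, cones and Muller cells are also given without it. Levels are UMIs of a gene per 1000000 UMIs of a type in a library (CPM), given as the mean ± SD over all 6 libraries, and they compare types for 1 gene, not genes with each other. In the GENCODE annotation of GRCm38 the members span from 4231 bases (Neurod1, chr2:79452521-79456751, minus strand) to 377830 bases (Thrb, chr14:17660261-18038090, plus strand).

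Nrl, Nr2e3 and Esrrb were highest in rods, the cells whose fate or survival they support. Rods numbered 15486 nuclei, with a median of 1265 UMIs. Nrl, the leucine zipper factor without which rods do not form, was counted at 314 ± 37.1 CPM in rods and at 47.7 ± 8.02 CPM in cones. In rods it was 351, 307 and 332 CPM in the saline libraries 1, 2 and 6 and 317, 244 and 330 CPM in the IL-27 libraries 4, 5 and 10. Rods lay above cones in 6 of 6 libraries, by 5.78 to 7.31 times, and IL-27 replicate 5 was the lowest. Cones, microglia and the remaining types formed a run of overlapping levels down to 6.79 ± 1.76 CPM in ganglion cells.

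Nr2e3, the orphan receptor that represses cone genes in rods, was counted at 351 ± 80.2 CPM in rods and at 45.7 ± 16.6 CPM in cones. Its rod levels were 352, 335 and 311 CPM in saline and 368, 249 and 491 CPM in IL-27. The IL-27 libraries held both the lowest and the highest value, replicate 5 and replicate 10. Esrrb, an orphan receptor that rods need to survive, was counted at 463 ± 78.1 CPM in rods, with 410, 460 and 488 CPM in saline and 406, 408 and 607 CPM in IL-27. Replicate 10 was again the highest library. Rods were 5.76 to 9.12 times above cones for Esrrb in the 6 libraries.

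Esrrb differed from Nrl and Nr2e3 in horizontal cells, where it was counted at 51.4 ± 9.06 CPM. The values were 52.7, 58.8 and 41.4 CPM in saline and 59.8, 56.9 and 39.0 CPM in IL-27, overlapping with cones (58.8 ± 15.1 CPM) and above the highest library of the next type, microglia (16.9 ± 8.46 CPM). An Esrrb UMI was found in 35.8% of the 495 horizontal nuclei, whose median depth was 9955 UMIs. Nuclei with at least 1000 UMIs were then thinned to 1000 UMIs, which left out 4206 rods, 54 cones and 0 horizontal nuclei. After thinning the horizontal share was 3.43% (exact 95% interval 2.01 to 5.44), against 33.0% (32.2 to 33.9) of rods and 3.57% (2.96 to 4.27) of cones.

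Rod transcripts were found in every type. In droplet data, RNA freed from broken cells can give UMIs in nuclei that do not express a gene, and its part in these levels was not tested. The 7 rod markers summed to 7747 to 9896 CPM in rods, 2671 to 4120 CPM in cones, 496 to 1435 CPM in microglia and 102 to 292 CPM in ganglion cells, and none of them was at 0 in any type. After thinning, Nrl was found in 25.8% of rods, in 3.85% of cones and in 1.38% of amacrine cells, which should lack it and whose median depth was 5876 UMIs (unthinned 33.1%, 9.73% and 6.94%).

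Crx, Otx2 and Neurod1, the factors shared by both photoreceptors, were high in rods and cones and were also found in bipolar cells. Crx, the cone-rod homeobox factor, was counted at 458 ± 67.2 CPM in cones, 375 ± 49.6 CPM in rods and 105 ± 7.98 CPM in bipolar cells, and at 34.8 CPM or less elsewhere. In cones it was 401, 479 and 437 CPM in saline and 370, 527 and 536 CPM in IL-27, and in rods 362, 366 and 352 CPM and 347, 350 and 475 CPM. Cones were above rods in 6 of 6 libraries, but the ranges of the types over libraries overlap.

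Otx2, the homeobox factor that both photoreceptors and bipolar cells need, was highest in bipolar cells at 329 ± 17.4 CPM, followed by rods at 294 ± 17.7 and cones at 243 ± 21.4 CPM. The bipolar values were 347, 333 and 338 CPM in saline and 327, 331 and 296 CPM in IL-27, so that every IL-27 library was below every saline library. In rods they were 297, 298 and 317 CPM against 307, 273 and 274 CPM, which overlap. Bipolar cells were above rods in 6 of 6 libraries, although their ranges over libraries overlap, and rods were above cones with no overlap. Otx2 was spread over all 10 bipolar clusters, from 249 ± 38.3 CPM in an OFF bipolar cluster to 391 ± 35.4 CPM.

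In endothelial nuclei Otx2 was counted at 19.8, 45.8 and 372 CPM in saline and 10.0, 15.2 and 43.3 CPM in IL-27, with saline replicate 6 far above the other libraries. The sum rested on 69 UMIs in 237 nuclei. Pigmented epithelium, which lies behind the retina and uses Otx2, was sought with 6 markers. In 13 nuclei of all libraries at least 3 of the 6 were found, and these held 65 Otx2 UMIs, or 520 CPM. The part of such nuclei in the endothelial value was not tested.

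Neurod1, a helix-loop-helix factor that photoreceptors need to survive, was counted at 248 ± 14.0 CPM in rods and 238 ± 15.6 CPM in cones. Rods held 226, 267 and 254 CPM in saline and 243, 256 and 245 CPM in IL-27, and cones 225, 255 and 227 CPM and 222, 248 and 255 CPM. Rods were above cones in 5 of 6 libraries, so the order of these neighbours is not settled by their spread. Bipolar cells followed at 52.3 ± 6.85 CPM.

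In bipolar cells the 7 rod markers summed to 331 to 780 CPM, which overlaps Muller cells (252 to 651 CPM), where Crx was 14.1 ± 5.71, Otx2 9.62 ± 2.56 and Neurod1 15.5 ± 2.86 CPM. With predicted doublets kept, Muller cells held 32.3 CPM of Crx, 38.8 CPM of Otx2 and 24.0 CPM of Neurod1. After thinning, Crx was found in 9.43% of bipolar nuclei (8.88 to 10.0), Otx2 in 28.1% (27.2 to 28.9) and Neurod1 in 4.73% (4.34 to 5.15).

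**Figure D1:**
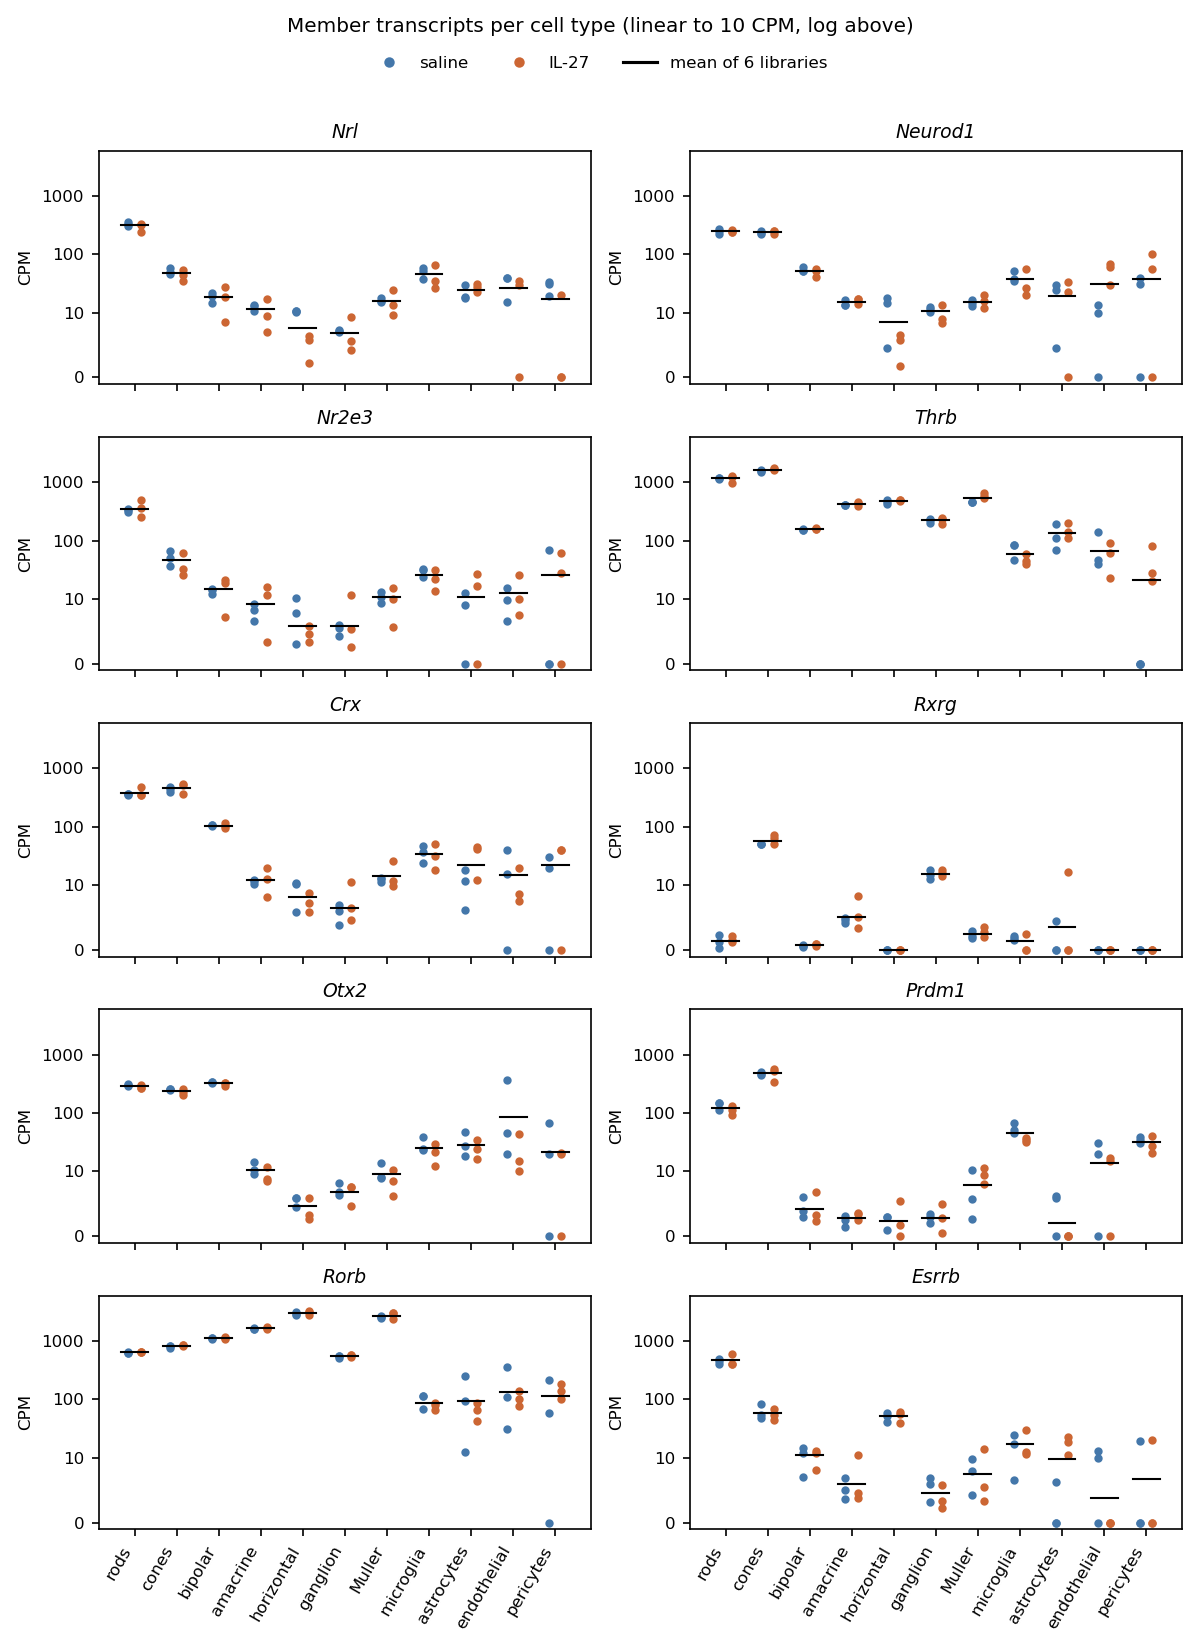
CPM of the 10 members in 11 cell types, on an axis that is linear to 10 CPM and logarithmic above. Each point is 1 library, blue for saline and orange for IL-27, and the black bar is the mean of 6 libraries. Nrl, Nr2e3 and Esrrb peak in rods, Prdm1, Rxrg and Thrb in cones, Otx2 in bipolar cells and Rorb in horizontal and Muller cells.

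Thrb, Rxrg and Prdm1 were highest in cones, which numbered 3329 nuclei. Thrb, the thyroid hormone receptor whose beta-2 form turns on the M opsin gene, was counted at 1616 ± 96.3 CPM in cones and 1158 ± 95.1 CPM in rods. In cones it was 1485, 1641 and 1537 CPM in saline and 1739, 1699 and 1597 CPM in IL-27, and in rods 1122, 1177 and 1179 CPM and 1225, 1255 and 987 CPM. Cones were above rods in 6 of 6 libraries with no overlap, by a factor of 1.40 in the means. Counts are per gene, so the beta-1 and beta-2 forms cannot be told apart. Thrb was also counted at 526 ± 76.5 CPM in Muller, 472 ± 29.7 in horizontal, 418 ± 26.1 in amacrine and 223 ± 21.4 CPM in ganglion cells.

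Rxrg, the retinoid X receptor that pairs with thyroid hormone receptor in cones, was counted at 56.9 ± 9.20 CPM in cones. The values were 51.1, 51.4 and 51.3 CPM in saline and 51.6, 73.1 and 63.1 CPM in IL-27, every IL-27 library being above every saline library, though replicate 4 by under 1 CPM. Ganglion cells followed at 15.8 ± 2.28 CPM, from 12.6 to 18.4 CPM, above every library of the next type. In rods it was 1.45 ± 0.727 CPM, from 32 UMIs in all, and cones were above rods in 6 of 6 libraries. No Rxrg UMI was found in endothelial or pericyte nuclei, nor in the horizontal nuclei that were left after the filter on depth. Without that filter 1 of 495 horizontal nuclei held an Rxrg UMI (0.202%, 0.0051 to 1.12), and after thinning 0 of 495 did, which allows a share with a UMI of up to 0.606%.

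Prdm1, the zinc finger repressor that keeps young photoreceptors from turning into bipolar cells, was counted at 477 ± 80.6 CPM in cones and 125 ± 21.6 CPM in rods. Cones held 506, 466 and 453 CPM in saline and 530, 569 and 337 CPM in IL-27, with replicate 10 the lowest library. Rods held 147, 115 and 146 CPM in saline and 134, 92.4 and 113 CPM in IL-27. Microglia followed at 44.9 ± 13.5 CPM. A Prdm1 UMI was found after thinning in 34.4% of cones, 9.89% of rods and 5.12% of microglia.

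Rorb, a nuclear receptor that acts before Nrl in rods and also in horizontal and amacrine cells, was the one member whose highest levels lay outside the photoreceptors and bipolar cells. It was counted at 3007 ± 192 CPM in horizontal and 2692 ± 283 CPM in Muller cells, which overlap. Horizontal cells held 3184, 2873 and 2843 CPM in saline and 3142, 3212 and 2787 CPM in IL-27. The levels then fell in steps without overlap through amacrine (1641 ± 52.7), bipolar (1116 ± 33.8), cones (823 ± 42.5), rods (641 ± 18.5) and ganglion cells (550 ± 27.3 CPM). Microglia and the vascular and astrocyte nuclei held 88.1 to 135 CPM.

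Levels were uneven within bipolar and amacrine cells. Thrb was 887 ± 47.3 CPM in bipolar cluster 11, led by Gabrr3, Adarb2 and Fer1l6, with 811 to 947 CPM in the 6 libraries. The other 9 bipolar clusters had means of 31.4 to 253 CPM, the lowest being the rod bipolar cluster. Crx ran from 62.1 ± 12.7 CPM in an OFF bipolar cluster to 133 ± 16.2 CPM in an ON cone bipolar cluster, and the 6 libraries of these 2 clusters did not overlap (40.8 to 77.4 and 111 to 155 CPM). In amacrine clusters Thrb ran from 30.3 ± 3.90 CPM in cluster 9 to 871 ± 99.7 CPM in GABAergic cluster 32. Rorb reached 3327 ± 99.0 CPM in amacrine cluster 31, led by Slc17a8, and was 642 to 1389 CPM in the bipolar clusters. Rxrg in amacrine cells was found mainly in cluster 23, led by Vip, at 39.4 ± 17.8 CPM (22.4 to 72.1 in single libraries). These clusters were chosen for their values, so no test is given.

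**Figure D2:**
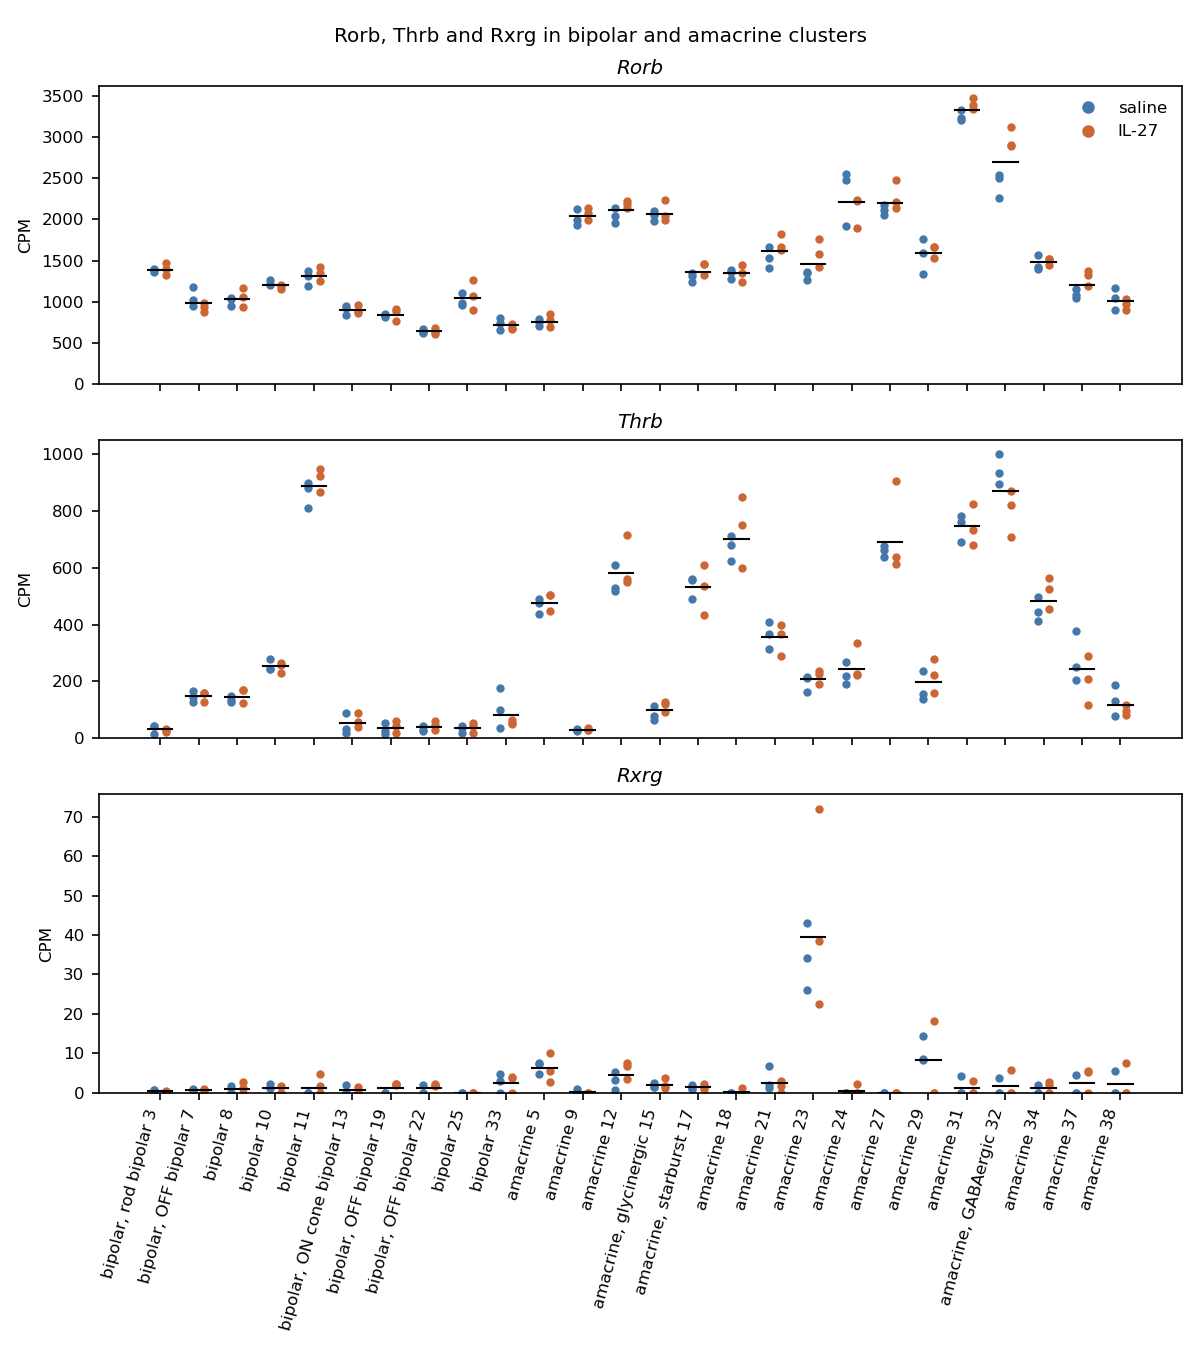
CPM of Rorb, Thrb and Rxrg in the bipolar and amacrine clusters, 1 point per library (blue saline, orange IL-27) with the mean of 6 libraries as a bar. Thrb stands out in bipolar cluster 11, Rorb in amacrine cluster 31 and Rxrg in amacrine cluster 23.

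The genes most like each member over the 11 types were found by Pearson's r of log2(mean CPM + 1) among 12702 genes. These are correlations over types that share libraries and free RNA, and are given as descriptions. The genes nearest to Nrl included the rod markers Gnat1 (0.993) and Cnga1 (0.983). Nr2e3 was nearest to Lrrc2 (0.993), Cnga1 (0.9896) and Gm14505 (0.982), and Esrrb to Arl13b (0.944), Acoxl (0.943) and AW046200 (0.936). Crx was nearest to Slc17a7 (0.991), which loads glutamate into synaptic vesicles, then to Ppm1d (0.978) and 5330413P13Rik (0.9753). Otx2 was nearest to Lrit1 (0.957), Ndufv3 (0.956) and Otx2os1 (0.952), and Neurod1 to A930003A15Rik (0.983), Icmt (0.983) and Rbp3 (0.982). For the cone-high members the nearest were Gm48321 (0.987), Gm13832 (0.956) and Dtnb (0.922) for Thrb, Far1os (0.941), C230014O12Rik (0.915) and Poteg (0.873) for Rxrg, and Guca1a (0.968), Cdk2ap2 (0.954) and Tnfsf12 (0.951) for Prdm1. For Rorb they were Trim9 (0.903), Chchd7 (0.902) and Lrba (0.901), the lowest first-ranked r of the 10 members.

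To ask whether IL-27 changed these factors, the sums of each type were compared between the 3 IL-27 and the 3 saline libraries with edgeR's quasi-likelihood test and Benjamini-Hochberg adjustment over all genes of the type. Of 110 pairs of member and type, 72 passed the filter on low counts and 0 were called at an adjusted p under 0.05. Over all genes and types, 8 of 107418 tests (0.00745%) were called. Among the members 3 pairs had an unadjusted p under 0.05, or 4.17% of the pairs, against 4.17% of all tests. DESeq2 called 0 pairs as well. The log2 fold change was above 0 in 38 pairs and below 0 in 34, and the smallest adjusted p was 0.317. The groups did not overlap in 5 pairs, or 6.94%, against 9.38% of all tests. In a sum over nuclei, a difference in RNA per nucleus and a shift in the mix of nuclei within a type cannot be told apart.

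In rods, 9 members passed the filter and 0 were called (1 of 13515 genes, 0.0074%). The log2 fold changes (IL-27 over saline) ran from -0.26 for Prdm1 to 0.16 for Nr2e3, with a median of -0.0047 against 0.0023 for all genes. Standard errors were 0.08 to 0.17. The 95% interval was -0.39 to 0.09 for Nrl, -0.20 to 0.51 for Nr2e3 and -0.12 to 0.36 for Crx. For Rorb it was -0.14 to 0.22 and for Thrb -0.22 to 0.21. The groups overlapped for all 9 members, while 8.15% of all rod genes did not overlap, and Rxrg was too low in rods to be tested. Without IL-27 replicate 10, 0 members were called in rods, and the log2 fold change was -0.09 for Nr2e3, -0.04 for Crx, -0.15 for Esrrb and 0.11 for Thrb, each of the other sign than with it. It was -0.22 for Nrl and -0.24 for Prdm1.

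In cones, all 10 members passed the filter and 0 were called (1 of 10960 genes, 0.00912%). The values ran from -0.36 (SE 0.26) for Nr2e3 to 0.29 (SE 0.16) for Rxrg, with a median of 0.03 against 0.0018 for all genes. Rorb and Rxrg were higher in every IL-27 library than in every saline library, while 9.20% of all genes in cones did not overlap in either direction. For Thrb the interval was -0.14 to 0.37 and for Prdm1 -0.32 to 0.36. Without IL-27 replicate 10, 0 members were called in cones, and the values ran from -0.77 for Nr2e3 to 0.30 for Rxrg, with -0.34 for Nrl, -0.31 for Esrrb and 0.24 for Prdm1. The difference of the IL-27 effect between rods and cones was tested in 1 fit, with 0 of 10 members called (4 of 13042 genes, 0.0307%). The lowest unadjusted p was that of Nr2e3 (0.52, SE 0.19, unadjusted p = 0.0112, adjusted p = 0.999 with edgeR), the 1 member under 0.05. Of all genes in this fit, 531 of 13042 (4.07%) had an unadjusted p under 0.05.

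**Figure D3:**
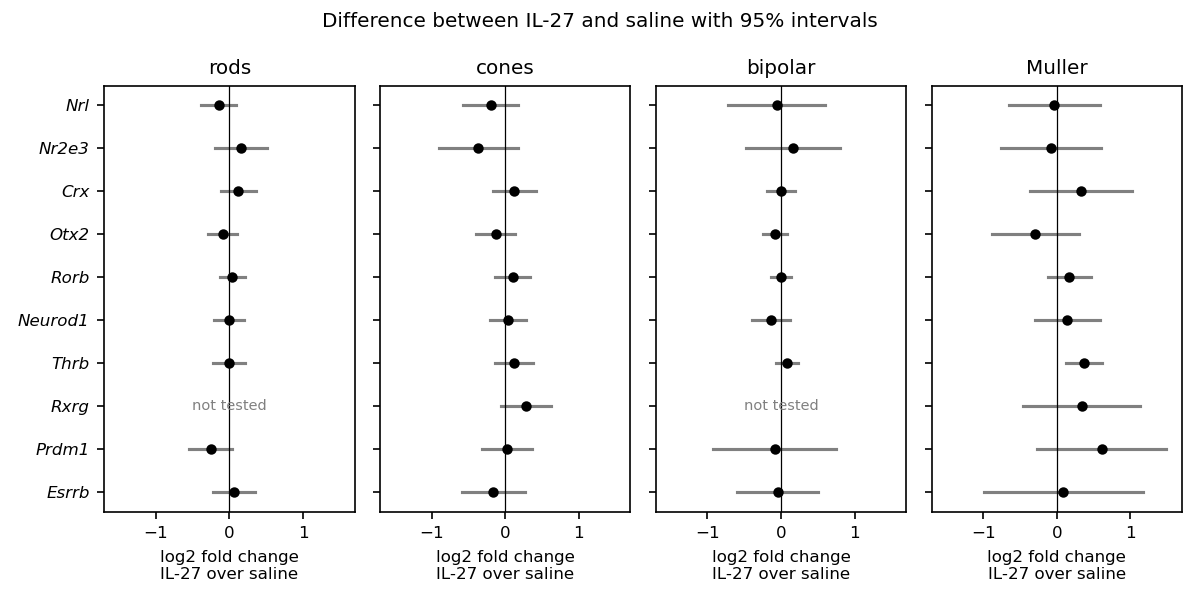
Log2 fold change (IL-27 over saline) of the 10 members in rods, cones, bipolar and Muller cells, with 95% intervals from edgeR. Every interval spans 0 except that of Thrb in Muller cells (0.13 to 0.61), and Rxrg was not tested in rods and bipolar cells.

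The summed level of the 7 rod markers in rods was 9227 to 9752 CPM in saline and 7747 to 9896 CPM in IL-27, with a wider range among the IL-27 libraries. In bipolar cells 9 members passed the filter and 0 were called, as were 0 of all 15267 genes. Otx2 there, lower in every IL-27 library, had a log2 fold change of -0.08 (SE 0.07, edgeR adjusted p = 0.9998), and 8.84% of all bipolar genes did not overlap.

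In the remaining neurons the members gave no call either. Amacrine cells had 10 members tested with a median log2 fold change of 0.19 (1 of 16633 genes called, 0.00601%). Ganglion cells had 10 with a median of -0.02 (0 of 13703 genes called). Horizontal cells had 3 (Rorb, Thrb and Esrrb) with values of 0.04 to 0.10 (0 of 7619 genes called). The groups overlapped for every member in these types, against 8.59% of all amacrine, 8.84% of ganglion and 9.80% of horizontal genes that did not. Astrocytes had 2 members tested, endothelial nuclei 1 and pericytes 0, with no call, and there 8.35%, 7.47% and 9.36% of all genes did not overlap. Of all genes, 0 of 3724, 0 of 2557 and 1 of 801 (0.125%) were called in these 3 types.

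In microglia all 8 members that passed the filter were lower in the IL-27 libraries, and 0 were called, as were 0 of all 8591 genes. Prdm1 was 51.2, 46.2 and 68.2 CPM in saline and 36.9, 32.6 and 34.2 CPM in IL-27 and did not overlap (log2 fold change -0.66, SE 0.26), as 8.24% of all microglial genes did not. Thrb was -0.65 (SE 0.26) there. The 7 rod markers summed to 1170 to 1418 CPM in microglia in saline and 496 to 1435 CPM in IL-27. Of the 18 rod genes tested in microglia 0 were above 0, with a median log2 fold change of -0.50 against -0.0023 for all genes. The part of free rod RNA in the values of the members was not tested.

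The other genes of the programme were counted from fixed lists. Of 20 other regulators, which include Mef2c, Casz1 and Samd7, 19 were tested in rods and 20 in cones, and 0 were called in either, with medians of 0.0031 and 0.03. Casz1, a zinc finger factor of retinal progenitors and rods, was 809 ± 14.4 CPM in saline and 892 ± 65.7 CPM in IL-27 in rods. It did not overlap, as 8.15% of all rod genes did not. Samd7, a rod silencing factor, was 263 ± 25.6 and 314 ± 72.0 CPM, and overlapped. Of the 19 regulators tested in rods, 0 had an unadjusted p under 0.05 in edgeR. In cones the lowest p values belonged to Samd11 and Nono, at -0.38 (SE 0.21) and -0.25 (SE 0.15).

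Of 19 rod genes 0 were called in rods or in cones. Their median was -0.09 in rods and -0.26 in cones, where 1 of 19 was above 0. In cones Pde6b and Pdc had the lowest p values, at -0.73 (SE 0.21) and -0.46 (SE 0.14), with an edgeR adjusted p of 0.9997 each. In rods they were Guca1b (-0.26, SE 0.12) and Gngt1 (-0.28, SE 0.15). The 7 rod markers summed to 3713 to 4120 CPM in cones in saline and 2671 to 3837 CPM in IL-27. Of 11 cone genes 0 were called, with medians of -0.02 in rods and -0.01 in cones, where Slc24a2 (0.21, SE 0.13) and Opn1sw, the S opsin (-0.40, SE 0.27), came first. In rods Pde6c and Opn1sw came first, at 0.56 (SE 0.20) and -0.70 (SE 0.32). Over all 11 types, 26.0 of 387 tests of list genes (6.72%) had an unadjusted p under 0.05 in edgeR, against 4.17% of all tests. These were 19 of 163 tests of rod genes (11.7%), 3 of 71 of cone genes (4.23%) and 4 of 153 of other regulators (2.61%), and 0 were called by edgeR and 0 by DESeq2. Of the 19 for rod genes, 0 were in rods, 8 in microglia and 6 in cones. Horizontal and ganglion cells held 2 each and astrocytes 1. The same genes were tested in several types of the same libraries, and the part of free rod RNA was not tested.

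In Muller cells, the glia that span the retina, Thrb was the member with the lowest p and Rorb was uneven between nuclei. Thrb was 465, 463 and 462 CPM in saline and 641, 589 and 536 CPM in IL-27, with no overlap between the groups. The log2 fold change was 0.37 (SE 0.11, 95% interval 0.13 to 0.61) and was not called (edgeR adjusted p = 0.317, 4 of 14048 genes called, 0.0285%). In Muller cells 13.8% of all genes did not overlap. Rorb was 2473, 2564 and 2637 CPM in saline and 3032, 3052 and 2395 CPM in IL-27, with replicate 10 the lowest library of all (log2 fold change 0.17, SE 0.13).

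A cluster of Muller nuclei high in Fbln1, Frmpd4, Reln and Csmd3, 4 genes that the study chose on these samples, made up 19.5%, 21.5% and 10.8% of Muller nuclei in saline. In IL-27 it made up 1.62% in replicate 4, 0.603% in replicate 5 and 11.9% in replicate 10, which stood within the saline range. None of the 8 Muller markers was among its 10 leading genes, which were ranked against the other Muller nuclei. The same held for every other cluster of Muller nuclei. The summed level of the 8 markers in saline was 2662 CPM against 6819 CPM in the other Muller nuclei. In the clustering of all nuclei, a cluster led by Fbln1 was named Muller with 7 of the 8 markers found. The 6 markers of pigmented epithelium summed to 57.4 CPM there in saline against 16.2 CPM in the other Muller nuclei, with Tyrp1 at 34.8 against 0.321 CPM and Ttr at 21.1 against 10.8 CPM. The other 4, Rpe65, Best1, Rgr and Lrat, were at 0.372 to 0.399 CPM in the cluster and at 0.643 to 1.97 CPM in the other nuclei. Their part in the result was not tested.

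Rorb and Thrb were both lower in this cluster than in the other Muller nuclei in 6 of 6 libraries. In the saline libraries Rorb was 220 ± 40.3 CPM in the cluster and 2951 ± 117 CPM in the other nuclei, a 13.4-fold difference (11.5 to 16.5 in single libraries). Thrb was 266 ± 62.9 CPM against 494 ± 11.2 CPM, or 1.86-fold (1.45 to 2.24). The values of the cluster in IL-27 replicates 4 and 5 (Rorb 1644 and 314 CPM) rest on 13 and 5 nuclei. Being a cluster of the same nuclei, it is compared without a test.

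With the cluster left out, Thrb was 507, 490 and 486 CPM in saline and 644, 591 and 558 CPM in IL-27, still without overlap (log2 fold change 0.27, SE 0.10, edgeR adjusted p = 0.972, 5 of 13693 genes called, 0.0365%). The share of all genes without overlap was not counted in these nuclei. Rorb was 2881, 3087 and 2886 CPM in saline and 3049, 3065 and 2605 CPM in IL-27, and its log2 fold change was -0.02 (SE 0.11). Without IL-27 replicate 10 and with the cluster kept, both passed the threshold, at 0.45 (SE 0.08, edgeR adjusted p = 0.0119) for Thrb and 0.29 (SE 0.06, edgeR adjusted p = 0.0228) for Rorb, in a fit that called 416 of 14301 genes (2.91%). With both left out, a setting added after the data were seen, Thrb was 0.34 (SE 0.08, edgeR adjusted p = 0.387) and Rorb 0.08 (SE 0.05, edgeR adjusted p = 0.952), and 9 of 14017 genes were called (0.0642%).

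**Figure D4:**
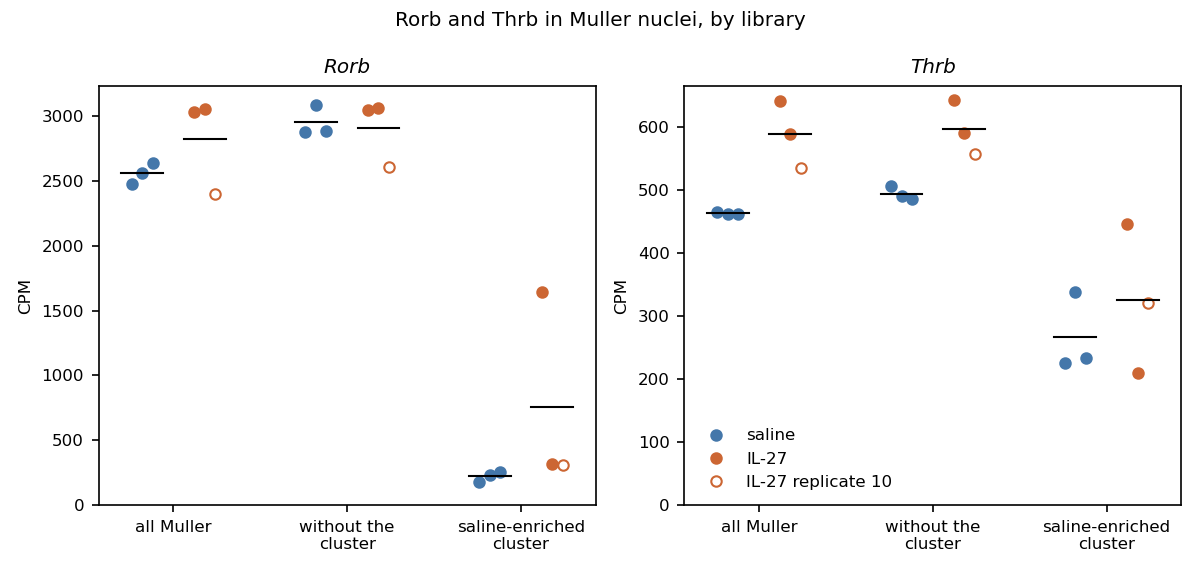
CPM of Rorb and Thrb by library in all Muller nuclei, in Muller nuclei without the saline-enriched cluster and in that cluster, with group means as bars and IL-27 replicate 10 as an open circle. Rorb is low in the cluster (175 to 314 CPM in 5 libraries and 1644 CPM in IL-27 replicate 4), and Thrb separates the groups with and without it.

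Among the other Muller nuclei, the Thrb levels of the groups overlapped in some clusters and not in others. In the largest cluster, led by Rsad2, Ifi204 and Iigp1, interferon-induced genes, it was 470 ± 38.2 CPM in saline and 511 ± 25.9 CPM in IL-27, which overlap. In the cluster led by 6030498E09Rik, Adamts17 and Syt10 it was 490 ± 4.63 CPM against 676 ± 31.7 CPM, and in the cluster led by Adamts19, Gm29683 and Brinp1 it was 530 ± 19.7 CPM against 680 ± 32.5 CPM, both without overlap. A cluster of 83 nuclei led by Gm44196, March1 and Pex5l held 582 ± 33.5 CPM of Thrb in saline and 667 ± 115 CPM in IL-27, which overlap. It also held 109 ± 30.6 CPM of Crx and 99.6 ± 36.6 CPM of Otx2 over the 6 libraries, the highest of the Muller clusters. These clusters were not tested one by one, and the share of all their genes without overlap was not counted.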

How the data were processed

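Nuclei of frozen retinas were sequenced with a 10x Genomics 3′ kit. The deposited files hold raw UMI counts per gene and nucleus, which the authors made, per the labels, with Cell Ranger 9.0.1 (the file headers name another version) against the 10x mouse reference (the genome build is not given in the sources used here). The authors then worked in Seurat 5.2.1. The raw counts were used here: nuclei with over 500 UMIs, at least 200 genes and under 5% mitochondrial UMIs were kept (56205 of 56634), and 4021 predicted doublets were removed by a nearest-neighbour score at an expected rate of 8% per library.

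The nuclei were clustered (2000 variable genes without the members, 25 components, Louvain resolution 0.25). A cluster was named from fixed markers when at least 4 were found and their mean z score reached 0.35, limits that were set after the clusters were seen. A depth filter was set once over all retained nuclei, not per type. It left out nuclei whose log2 depth differed from the common median by over 2 scaled median absolute deviations. The scaling makes this deviation match the SD of a normal distribution. The types lost unequal shares: 14987 of 15486 rods, 2104 of 2252 ganglion and 5397 of 5402 Muller nuclei were kept. The counts of the 51288 nuclei that passed were summed per library and type. The sums were tested in R 4.3.3 with edgeR 4.0.16 (quasi-likelihood test, TMM, a filter of 10 counts, adjusted p under 0.05), with DESeq2 1.42.0 as an alternative. The script was tested on simulated data. For shares, nuclei were thinned to 1000 UMIs, which left out 4206 rods. Shares have exact Clopper-Pearson 95% intervals, which cover counting error only. The exact permutation test cannot go below 0.10 with 3 against 3 libraries and was not used.

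All 10 members are named, with the 3 genes most like each (at least 20 CPM in 1 type, and 1 such gene is not reported here) and, per list, the 2 with the lowest p. The members and lists were chosen with earlier results of these data known. Promoter windows are from RefSeq, build GRCm38.p6. Alternatives were other scalings, filters, clusterings and nuclei, and leaving out each library.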

Additional observations from a re-analysis of the deposited data

How the results depend on the processing

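No paired analysis was possible because the saline and IL-27 libraries share no replicate number. The number of members called in any type was 0 with DESeq2 and under every other scaling, clustering and choice of nuclei tried. It was 1 with no low-count filter, Otx2 in endothelial nuclei (log2 fold change -2.79, edgeR adjusted p = 0.000224, where 57 of 16661 genes or 0.342% were called), and 0 to 2 with 1 library left out, the 2 being Thrb and Rorb in Muller cells without IL-27 replicate 10 (0.45 and 0.29). The genes called over all types moved more, from 8 to 103 with DESeq2, 508 with no filter, 5 with a filter of 30 counts, 13 with both IL-27 replicate 10 and the saline-enriched Muller cluster left out (added after the data were seen), and 1 to 421 with 1 library left out. The 421 was without IL-27 replicate 10. The causes were not tested. The difference between rods and cones called 0 members under all alternatives tried, and the type with the highest level was the same for all 10 members in thinned shares, with all nuclei and with no doublet removal. Without doublet removal Otx2 in bipolar cells was 306 CPM and Thrb in cones 1378 CPM. Low levels moved more: 34 of 107 pairs of member and type moved over 1.5 times, 32 of them higher and 0 in rods or cones, among them Otx2 in Muller cells (9.62 to 38.8 CPM) and Rorb in microglia (88.1 to 189 CPM).

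In rods the log2 fold change of Thrb changed sign in 6 of 16 alternatives, of Neurod1 in 5, of Esrrb in 2, and of Nr2e3 and Crx in 1 each. In cones that of Prdm1 did so in 3, and of Neurod1 and Esrrb in 1 each. The other members tested in these types kept their sign. Low counts left Rxrg untested in rods, and left 0 to 2 members tested in the vascular types and astrocytes.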

Other observations

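In 4 of the 5 clusters that could not be named from the markers (the fifth held 27 nuclei and was not summed), the members showed one pattern. Rorb was 1627 ± 85.8 to 2219 ± 102 CPM over the 6 libraries, and the means of Nrl, Nr2e3, Crx, Otx2, Neurod1, Prdm1 and Esrrb were 22.3 CPM or less. Thrb separated them, from 31.0 ± 18.6 CPM in the cluster led by Gm20063, Dnah11 and Gm12128 to 328 ± 52.4 CPM in the cluster led by Esr1, Spink13 and Angpt1. The highest library of the first (63.7 CPM) lay below the lowest of the second (246 CPM). Rxrg was 0.750 CPM or less in the means. These clusters entered no comparison.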
